A study of Homo sapiens with 36 samples.

Results

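Amino acid transporter families were followed by name: every probe whose platform symbol starts with SLC1A, SLC3A, SLC6A, SLC7A, SLC36A, SLC38A or SLC43A was taken, whatever its signal. This gave 86 of the 48803 probes on the array, for 62 of the 18665 genes the platform names. Of these, 44 probes for 36 genes passed the filter on detection and were tested among 12195 genes. RNA came from ZR-75-1, a human breast cancer line with estrogen, androgen and progesterone receptors, grown 48 h in medium with 10% hormone-stripped serum before each treatment of 16 h. The 36 Illumina bead arrays fall into 9 groups of 4: E2+DHT, DHT, E2+MPA, MPA, E2s+PROG, E2+PROG, PROG, E2 and the ethanol vehicle (VC). E2 is estradiol, DHT the androgen dihydrotestosterone, MPA the synthetic progestin medroxyprogesterone acetate and PROG progesterone. The dose of E2 and of DHT was 10 nM, singly or combined. The labels state no dose for MPA or PROG or for the E2 given with them, and do not say what the s in E2s+PROG stands for. Whether the 4 replicates of a group came from separate cultures is not stated either, and the p-values rest on their spread, which may be only technical. In RNA from whole cultures of 1 line, a change in fewer cells and a smaller change in every cell cannot be told apart.

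Amino acids enter cells through carriers that differ in what drives them. Heterodimeric exchangers pair a light chain of the SLC7 family with a heavy chain of the SLC3 family and swap amino acids across the membrane, while the cationic branch of SLC7 works without a heavy chain and carries arginine, lysine and ornithine. SLC1, SLC6 and SLC38 members use ion gradients, with substrates from glutamine and glutamate to glycine, creatine and monoamines. Some SLC36 members are coupled to protons, and SLC43 members are facilitative. In breast cancer cells, leucine and glutamine uptake feed protein synthesis and the mTORC1 growth pathway, and several carrier genes are known targets of ATF4, the transcription factor of the amino acid response.

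Promoter sequence is shown for 3 members that carry the amino acid response element TGATGNAA near a start site and for SLC7A5, which has no match. Sequences are from RefSeq on GRCh38.p14, all on the minus strand and written 5′ to 3′ along the gene. Each begins 120 bases before a start site, and capitals mark the element. The stretches are chr12:46266513-46266636 for SLC38A1, chr13:29595674-29595808 for SLC7A1, chr19:46784815-46784934 for SLC1A5 and chr16:87869508-87869627 for SLC7A5.
SLC38A1: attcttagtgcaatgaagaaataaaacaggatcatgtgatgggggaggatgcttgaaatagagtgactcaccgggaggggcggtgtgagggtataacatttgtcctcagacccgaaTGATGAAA
SLC7A1: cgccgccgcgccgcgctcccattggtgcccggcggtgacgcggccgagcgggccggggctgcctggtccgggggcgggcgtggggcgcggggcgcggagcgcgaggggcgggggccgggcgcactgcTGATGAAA
SLC1A5: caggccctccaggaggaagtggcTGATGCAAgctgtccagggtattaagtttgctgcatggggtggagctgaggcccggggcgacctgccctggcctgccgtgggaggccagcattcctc
SLC7A5: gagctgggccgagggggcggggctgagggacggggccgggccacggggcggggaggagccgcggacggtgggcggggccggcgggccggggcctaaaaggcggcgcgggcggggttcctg
SLC1A5 has 3 windows in the table and SLC38A1 has 2, and the element stands in 1 window of each. Windows ran from 250 bases before to 50 after each start site, and both strands were searched. TGATGNAA was found in windows of 6 of the 47 member genes with a promoter in the table, or 12.8%, against 4.46% of all genes in it. The other genes were SLC1A3, SLC1A4 and SLC3A2. The full palindromic estrogen response element was in the windows of 0 of 47 member genes and of 0.0732% of all genes. The androgen and progesterone response element, in its full palindromic form, was likewise in 0 of 47 and in 0.0842% of all genes. With elements this rare, 0 of 47 says little about the members. A match is a description of letters, and its absence says only that these letters are not in the window.

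Between 33.2% and 37.9% of all probes were above background per array, and replicates of 1 group correlated at 0.915 to 0.994. The arrays in columns 13 to 24 of the deposited table, here called the run, largely stood apart on the first component of deviations from the group means. Values there ran from −49.2 to −6.16. The separation is not clean, since MPA replicate 2, outside the run, was at −7.98. The labels do not say what sets these 12 columns apart, and they hold arrays of 7 groups but none of MPA or PROG. VC replicate 1 lies outside the run and yet deviated in the same direction, so values from fits with a block for the run, from arrays on either side of it and without VC replicate 1 stand beside the results they touch. All 10 luminal epithelial markers examined were above background on all 36 arrays, while 11 of 18 markers of other cell types with a probe were above it on at most 3 arrays, among them KRT5, KRT14, PTPRC, CD3E, CDH5 and PDGFRB on 0. The other 7 were above it more often: basal ACTA2, fibroblast COL1A1 and leukocyte CD14 on 36 arrays, PECAM1 on 34, VWF on 26, LYZ on 22 and DCN on 4. As a check on the labels, the estrogen-induced PDZK1 averaged 11.31 ± 0.12 with E2 and 5.89 ± 0.12 with VC (log2 intensity, SD, n = 4 each). The androgen-responsive FKBP5 averaged 11.44 ± 0.05 with DHT, 9.57 ± 0.10 with VC, 9.74 ± 0.10 with PROG and 11.39 ± 0.14 with E2+PROG. Group means of PGR, the progesterone receptor gene, were 5.45 to 5.85 without E2 and 6.97 to 8.94 with it. Those without E2 lie near the lowest signal above background, 5.86 to 6.21 per array.

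Detection differed between the families. Of the 36 genes tested, 22 were above background on every array and 14 on only some. Tested members numbered 10 of 14 in SLC7A, 9 of 14 in SLC38A, 7 of 18 in SLC6A, 5 of 7 in SLC1A, 2 of 4 in SLC36A, 2 of 3 in SLC43A and 1 of 2 in SLC3A. The other 26 genes had no probe above background on more than 3 arrays, and 14 of them were above it on 0. SLC6A14, a broad neutral and cationic carrier of epithelia, was above background on 0 arrays, and SLC43A1, a leucine carrier, on 1. For such genes the arrays give only an upper bound on the signal. Also among the members are 5 genes that are on none of the carrier lists used here, and 4 of these 5 were tested. Among them are the pseudogene SLC7A5P2, the antisense RNA SLC38A4-AS1 and protein-coding genes.

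The members differed widely in how far their group means were apart. Across the 9 groups, the mean of SLC38A9, a lysosomal arginine sensor, spanned 0.14 (log2), the smallest and named for that, and that of SLC1A5, the glutamine exchanger ASCT2, spanned 0.24. The span reached 1.79 in SLC38A2 and 1.56 in SLC38A6, where replicates within a group were also widely spread, with a median SD of 0.85 and 0.95. SLC7A2 joined a span of 1.15 to a median SD of 0.16.

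SLC7A2, which encodes the cationic amino acid transporter CAT-2, was higher in each of the 4 comparisons of a group with E2 and its counterpart without it. Its normalized log2 intensity was 11.53, 11.03, 11.11 and 11.17 in E2 replicates 1 to 4, against 10.72, 10.69, 10.49 and 10.55 in VC. All 4 E2 arrays lay above all 4 VC arrays. Of all genes tested, 4.57% had groups that did not overlap in this comparison, higher or lower. The means were 11.21 ± 0.22 and 10.61 ± 0.11 (SD, n = 4 each), a log2 difference of 0.60 (SE 0.13, 95% interval 0.34 to 0.87, limma adjusted p = 0.00629). It was the 1 member of 36 past the threshold of 0.05 between E2 and VC, where 1.86% of all genes tested were called.

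The E2 difference in SLC7A2 was found again with each second steroid. With DHT also present, the values were 11.22, 10.97, 11.01 and 11.37 in E2+DHT, against 10.54, 10.56, 10.06 and 10.41 in DHT. The groups did not overlap, as in 4.65% of all genes, and the log2 difference was 0.76 (95% interval 0.49 to 1.02, limma adjusted p = 0.000382). SLC7A2 was again the 1 member of 36 called, beside 1.33% of all genes. With MPA the values were 10.98, 10.645, 11.22 and 11.11 in E2+MPA, against 10.18, 10.09, 10.28 and 10.40 in MPA. These groups did not overlap either, as in 6.18% of all genes. The log2 difference was 0.75 (0.48 to 1.02, limma adjusted p = 0.000488), the 1 member called where 1.35% of all genes were.

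The widest E2 difference in SLC7A2 was in the presence of progesterone. E2+PROG arrays read 11.38, 11.34, 11.40 and 11.43, against 10.42, 10.30, 10.21 and 10.04 in PROG. Every E2+PROG array stood above every PROG array, with a log2 difference of 1.15, or 2.21-fold (0.88 to 1.41, limma adjusted p = 1.15e-07). These groups did not overlap in 13.9% of all genes. Whether this exceeds the difference without progesterone was tested by the interaction of E2 and PROG, which was 0.54 (log2) and did not pass (limma adjusted p = 0.145), although leaving out E2 replicate 1, the highest E2 array, gave 0.65 (limma adjusted p = 0.0471). The interactions with DHT and MPA were 0.15 each (limma adjusted p = 0.946 and 0.621). E2s+PROG arrays read 11.23, 11.08, 11.11 and 11.08, with a log2 difference from E2 of −0.09 that was not called (95% interval −0.35 to 0.18).

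**Figure D1:**
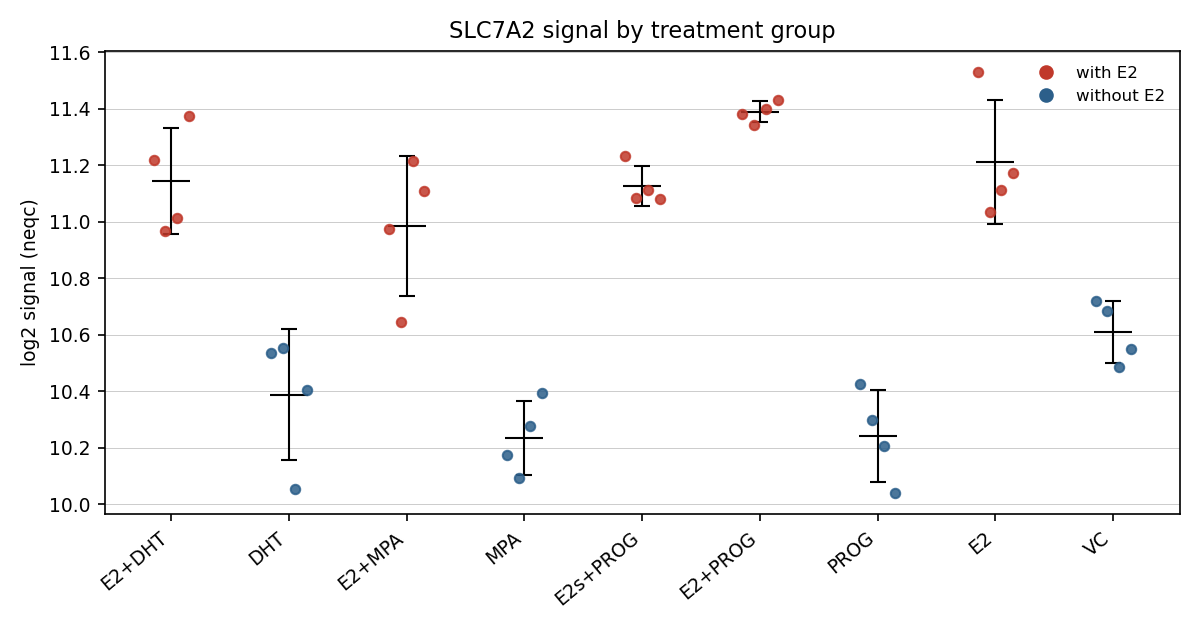
SLC7A2 normalized log2 intensity (vertical axis) on each array (points) with the group mean and SD (line and bar, n = 4) for 9 groups. The 5 groups with E2 sit between 10.645 and 11.53 and the 4 without E2 between 10.04 and 10.72.

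Of the 20 arrays with E2, 19 read above 10.72, the highest of the 16 arrays without it, and the exception was replicate 2 of E2+MPA. Averaged over the 4 pairs of groups that differ in E2, which share no arrays, the log2 difference was 0.81 (0.68 to 0.95, limma adjusted p = 2.57e-11). This average and its counterparts for DHT, MPA and PROG were added after the data were seen. On the 24 arrays outside the run it was also 0.81 (limma adjusted p = 9.42e-07). Between E2 and VC alone, the 5 arrays outside the run gave 0.47 (limma adjusted p = 0.0589), and the 3 inside it gave 0.77 (limma adjusted p = 0.839) with 1 VC array. Outside the run the E2+MPA and MPA arrays gave 0.57 (limma adjusted p = 0.118), with 2 E2+MPA arrays. E2+DHT and DHT differed by 1.06 outside it (limma adjusted p = 0.0101), with 1 DHT array, and by 0.72 inside it (limma adjusted p = 0.727), with 1 E2+DHT array. MPA and PROG without E2 each fell short of a call against VC, at −0.37 and −0.37 (limma adjusted p = 0.118 and 0.148). When only the arrays of the compared groups were fitted, the E2, E2+DHT and E2+MPA pairs gave 0.60, 0.76 and 0.75 and were not called (limma adjusted p = 0.292, 0.0978 and 0.133). Every other SLC7A2 probe was above background on 0 arrays, so these results rest on 1 probe.

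Of the other cationic carriers, SLC7A1 came closest to a call between E2 and VC. This gene, which encodes CAT-1 and carries arginine in most cells, is named here after its values were seen. It read 11.79, 11.70, 11.97 and 11.97 in E2, against 10.75, 11.51, 11.42 and 11.53 in VC. The groups did not overlap, as in 4.57% of all genes, but replicate 1 of VC stood well below its fellows. The log2 difference of 0.55 just missed the threshold (limma adjusted p = 0.0532). With the run as a block it was 0.57 (limma adjusted p = 0.0194), and without VC replicate 1 it was 0.37 (limma adjusted p = 0.402). Averaged over the 4 E2 pairs, SLC7A1 rose by 0.30 (log2, 95% interval 0.15 to 0.46, limma adjusted p = 0.0105), and without VC replicate 1 the average was 0.26. Outside the run it was 0.35 and no longer called (limma adjusted p = 0.0547). Of the 20 arrays with E2, 14 lay above the highest array without it. SLC7A4, also of this branch, is described below with progesterone.

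Among the heterodimeric transporters, SLC7A5 changed with E2 when averaged over the groups. This gene encodes LAT1, the light chain that imports leucine and other large neutral amino acids, and its partner SLC3A2 encodes the heavy chain CD98. SLC7A5 ran from 14.05 to 14.69, with a median of 14.35, on the 20 arrays with E2, against 13.35 to 14.34, with a median of 13.96, on the 16 without it. The ranges overlap, with 10 of the 20 E2 arrays above every array without E2. The average over the 4 E2 pairs was 0.40 (log2, 95% interval 0.23 to 0.58, 1.32-fold, limma adjusted p = 0.00123). On the arrays outside the run alone it was 0.33 (limma adjusted p = 0.0698).

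No single E2 pair passed for SLC7A5. In the pair with the widest difference, E2+MPA read 14.14, 14.16, 14.69 and 14.54, against 13.35, 13.97, 13.92 and 13.89 in MPA. These groups did not overlap, as in 6.18% of all genes, and the log2 difference was 0.60 (limma adjusted p = 0.0722). Without replicate 1 or replicate 2 of E2+MPA it was 0.68 and 0.67 and was called (limma adjusted p = 0.0278 and 0.0335). Both of these arrays lie outside the run, whereas the high replicates 3 and 4 lie in it, and the run holds no MPA array. In the 7 groups with arrays on both sides, SLC7A5 averaged 0.25 higher in the run. The differences were 0.20 for E2 against VC, 0.45 for E2+DHT against DHT and 0.37 for E2+PROG against PROG (limma adjusted p = 0.556, 0.294 and 0.255). The probe used for SLC7A5P2, a pseudogene of SLC7A5 also named after its values were seen, differed by 0.00 on the same average (limma adjusted p = 0.991). Its median was 14.96, brighter than SLC7A5 at 14.14 and near the highest signal of any marker examined, 15.34. Its other kept probe, with a median of 6.01 and above background on 17 of 36 arrays, gave −0.01. Signal from near-identical copies may be shared between probes, so the readings of SLC7A5 and SLC7A5P2 are uncertain to that extent.

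SLC3A2 read 10.70, 11.12, 12.13 and 12.12 in E2+MPA, against 10.68, 10.89, 10.73 and 9.78 in MPA. Replicates 3 and 4 of E2+MPA, both in the run, were the high ones, and the groups overlap. The log2 difference of 1.00 missed the threshold (limma adjusted p = 0.0678) but was 1.27 and 1.13, and called, without replicate 1 or replicate 2 of E2+MPA (limma adjusted p = 0.00730 and 0.0295). Also short of it was the average over the 4 E2 pairs of 0.39 (limma adjusted p = 0.101). In the 7 groups with arrays on both sides, SLC3A2 averaged 0.52 higher in the run, and a fit that blocked on the run gave 0.72 for E2+MPA against MPA (limma adjusted p = 0.156). The run holds no MPA array.

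Other light chains gave few calls. SLC7A11, the cystine and glutamate exchanger xCT that feeds glutathione synthesis, was above background on 4 of 36 arrays, between 5.16 and 6.51, and its average E2 difference was 0.03. SLC7A8, which encodes LAT2, was lower in E2s+PROG than in E2+PROG, at 7.03, 6.77, 6.75 and 7.23 in E2s+PROG against 7.50, 8.06, 7.27 and 7.78 in E2+PROG. The groups narrowly did not overlap, as in 6.44% of all genes, and the log2 difference was −0.71 (SE 0.19, limma adjusted p = 0.0475). It was the 1 member called, lower, in that comparison, where 1.74% of all genes were called. E2 alone read 7.26, 7.04, 7.29 and 7.02, and E2+PROG differed from E2 by 0.50, which was not called (limma adjusted p = 0.263). With the run as a block the difference was −0.62 (limma adjusted p = 0.0290), outside the run −0.53 (limma adjusted p = 0.351) and inside it −0.69 (limma adjusted p = 0.942). The call was lost without any 1 of replicates 1, 2 and 3 of E2s+PROG or replicates 1, 2 and 4 of E2+PROG, with values from −0.76 to −0.57 (limma adjusted p from 0.0602 to 0.284). Without background correction the difference was −0.35 (limma adjusted p = 0.0528).

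**Figure D2:**
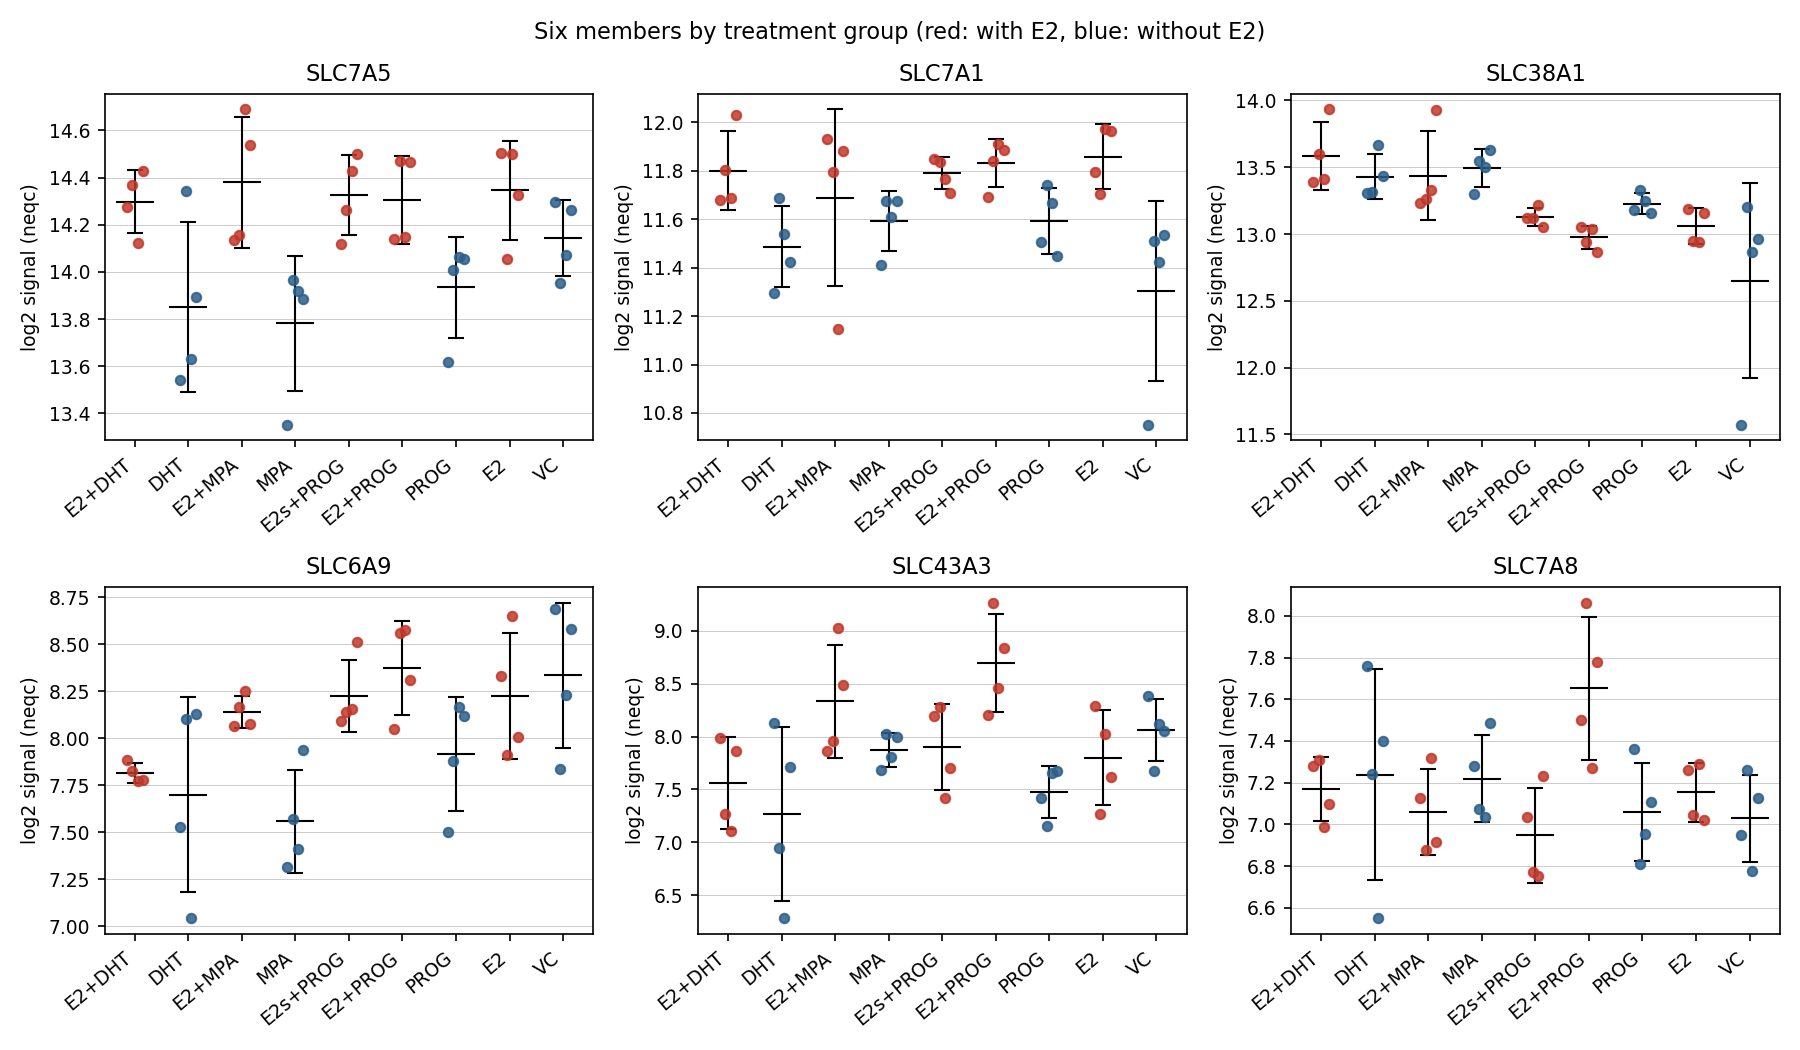
Normalized log2 intensity (vertical axes) on each array (points) with group mean and SD (n = 4) for SLC7A5, SLC7A1, SLC38A1, SLC6A9, SLC43A3 and SLC7A8 in 9 groups. SLC7A5 lies lower in the groups without E2, VC replicate 1 is the low point of SLC7A1 and SLC38A1, and SLC43A3 and SLC7A8 are high in E2+PROG.

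Averaging over the E2 pairs called 4 of the 36 members, 3 higher (SLC7A2, SLC7A5 and SLC7A1) and 1 lower, beside 6.45% of all genes. The median member difference was 0.08 (log2), against 0.00 over all genes tested. Of the 36 members 29 were positive, beside 50.6% of all genes, and 32 of the 36 did not pass. The lower one was SLC38A4-AS1, an antisense RNA with no known carrier function, at −0.52 (limma adjusted p = 0.00749), which was named after its values were seen. Its other 2 kept probes gave −0.15 and 0.07, and with the mean of the probes the average was −0.20 and not called (limma adjusted p = 0.222). SLC1A5 differed by 0.04, with a 95% interval of −0.09 to 0.16.

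**Figure D3:**
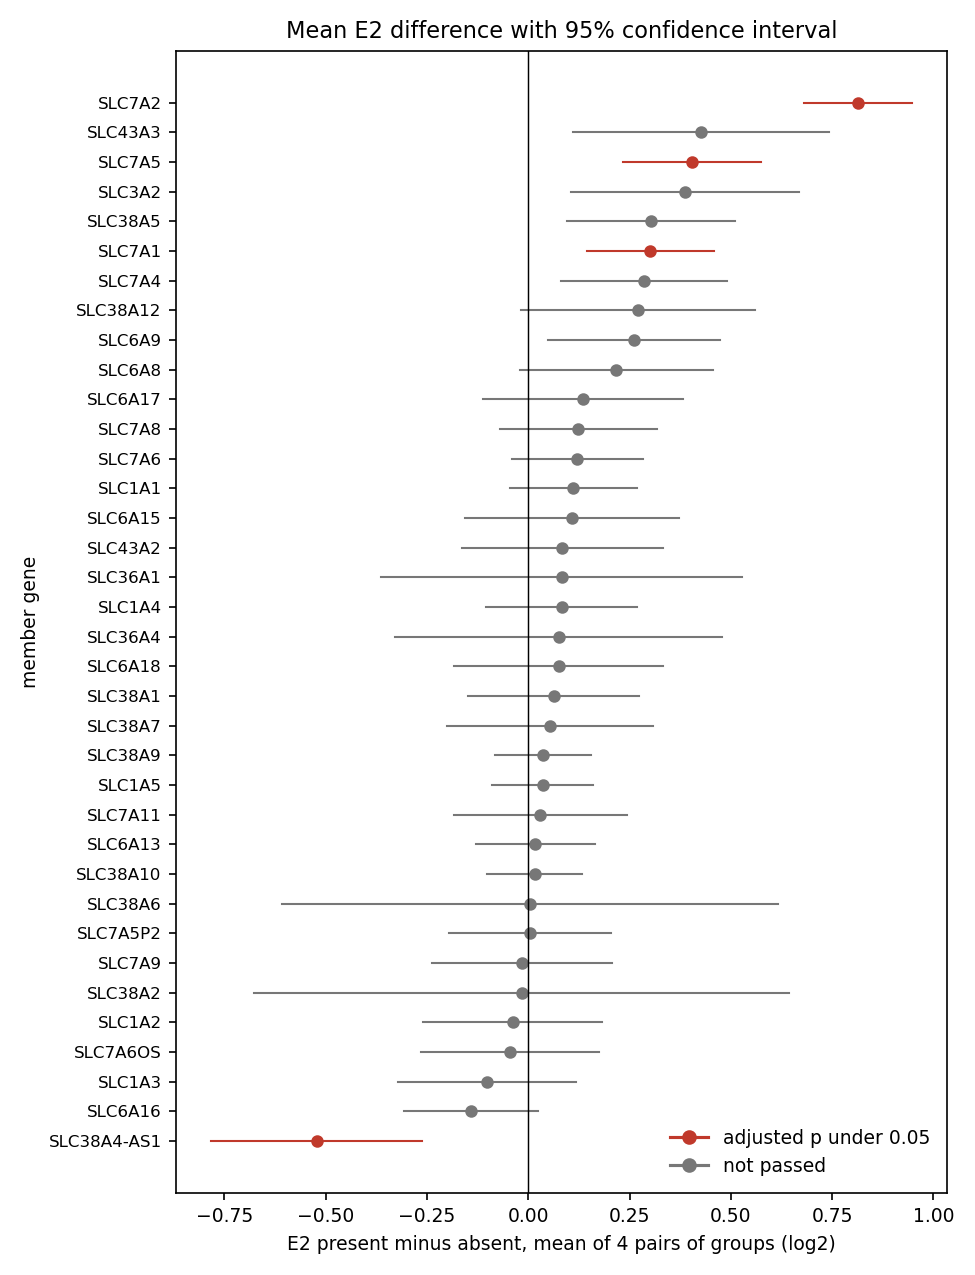
Average log2 difference between groups with and without E2 (horizontal axis, points) with 95% confidence intervals (lines) for the 36 member genes (down), in order of size. SLC7A2, SLC7A5 and SLC7A1 on the higher side and SLC38A4-AS1 on the lower side are past the threshold (red), and SLC38A2 and SLC38A6 have the widest intervals.

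SLC38A1 was higher with DHT and with MPA than with VC, in calls that were lost without single arrays. It encodes SNAT1, a sodium-coupled carrier of glutamine and other neutral amino acids. It read 13.30, 13.31, 13.66 and 13.43 in DHT and 13.30, 13.54, 13.50 and 13.63 in MPA, against 11.57, 13.21, 12.87 and 12.96 in VC. All DHT and MPA arrays lay above all VC arrays, but VC replicate 1 stood far below the rest. Of all genes, 5.49% did not overlap between DHT and VC, and 9.95% between MPA and VC. The log2 differences from VC were 0.78 for DHT (95% interval 0.35 to 1.20, limma adjusted p = 0.0362) and 0.84 for MPA (0.42 to 1.26, limma adjusted p = 0.0230). Both use the same VC arrays. Without VC replicate 1 they were 0.42 (limma adjusted p = 0.223) and 0.48 (limma adjusted p = 0.155), so neither was then called. Leaving out any 1 DHT array, or replicate 2, 3 or 4 of MPA, also ended the call, at 0.70 to 0.82 for DHT (limma adjusted p from 0.0585 to 0.125) and 0.80 to 0.84 for MPA (limma adjusted p from 0.0586 to 0.0760).

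SLC38A1 was the 1 member called with DHT, where 2.4% of all genes were called. With MPA it was 1 of 2 members called, beside 1.88% of all genes. Averaged over the pairs with and without E2, the difference for DHT was 0.65 (limma adjusted p = 0.00619) and for MPA 0.61 (limma adjusted p = 0.0118). The DHT average called 2 of 36 members, beside 3.26% of all genes, and the MPA average 1, beside 3.13%. Without VC replicate 1 these averages were 0.47 (limma adjusted p = 0.00339) and 0.43 (limma adjusted p = 0.00908). E2+DHT read 13.39, 13.60, 13.41 and 13.93, above all E2 arrays at 13.19, 12.95, 12.94 and 13.16. These groups did not overlap in 3.93% of all genes. That pair alone gave 0.53 (limma adjusted p = 0.513).

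Outside the run the SLC38A1 average was 0.86 for DHT (limma adjusted p = 0.0741, with 1 DHT array) and 0.57 for MPA (limma adjusted p = 0.240). Inside it the DHT average was 0.36 (limma adjusted p = 0.999). Another SLC38A1 probe gave 0.50 for DHT against VC and −0.55 for MPA against VC, neither called, and VC replicate 1 was the highest VC array on that probe, at 11.44. The probes thus disagree in direction for MPA against VC, and with the mean of the probes the differences were 0.64 for DHT and 0.15 for MPA, not called (limma adjusted p = 0.178 and 0.691).

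SLC6A9, which encodes the glycine transporter GlyT1, was lower with MPA. It read 7.32, 7.57, 7.41 and 7.94 in MPA, against 8.69, 7.84, 8.23 and 8.58 in VC. The highest MPA array lay above the lowest VC array, and the log2 difference was −0.78 (limma adjusted p = 0.0452). DHT arrays read 7.53, 8.10, 7.04 and 8.13, and averaged with the E2 pair the DHT difference was −0.52 (limma adjusted p = 0.0430). Without VC replicate 1 neither was called, at −0.66 for MPA (limma adjusted p = 0.259) and −0.46 for the DHT average (limma adjusted p = 0.113). Outside the run the MPA difference was −0.69 (limma adjusted p = 0.0418) and the DHT average −0.69 (limma adjusted p = 0.0741), and inside it the DHT average was −0.64 (limma adjusted p = 0.520). Without background correction the MPA difference was −0.47 (limma adjusted p = 0.0452), and in the processed table it was −0.58 and not called (limma adjusted p = 0.105). The MPA call was also lost without replicate 3 or 4 of VC or replicate 1, 2 or 3 of MPA, at −0.81 to −0.69 (limma adjusted p from 0.0584 to 0.142). The DHT average lost its call without replicate 3 or 4 of VC, replicate 1 or 3 of E2, replicate 1 or 3 of DHT or any E2+DHT array, at −0.54 to −0.41 (limma adjusted p from 0.0524 to 0.131).

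Of the 15 pairwise comparisons, that of E2+PROG with PROG held the most member calls, 4 of 36, all higher, where 4.81% of all genes were called. They were SLC7A2, SLC43A3, SLC6A8 and SLC7A4. The median member difference was 0.25 (log2), against 0.03 over all genes. SLC43A3, whose product has been described as a carrier of purine nucleobases, read 8.21, 9.26, 8.46 and 8.84 in E2+PROG, against 7.42, 7.15, 7.65 and 7.68 in PROG. The groups did not overlap, as in 13.9% of all genes. The log2 difference was 1.22, or 2.32-fold (95% interval 0.58 to 1.85, limma adjusted p = 0.0137).

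Replicates 2 and 4 of E2+PROG, the higher pair for SLC43A3, belong to the run, in which the gene averaged 0.56 higher. With the run as a block the difference was 0.93 (limma adjusted p = 0.0344), and on the 6 arrays outside it 0.86 (limma adjusted p = 0.0894). Without E2+PROG replicate 2, without E2+PROG replicate 4 or without PROG replicate 2 it was not called either, at 1.03 to 1.17 (limma adjusted p from 0.0509 to 0.0935). Of the other SLC43A3 probes, one gave 0.63 and another 0.02 in this comparison, neither called. With the mean of the probes the difference was 0.62 and without background correction 0.76, both called (limma adjusted p = 0.00786 and 0.00696). The interaction of E2 and PROG was 1.48 (limma adjusted p = 0.0888). It was called with the run as a block, at 1.33 (limma adjusted p = 0.0356), on arrays outside the run, and without VC replicate 2, E2 replicate 1 or E2+PROG replicate 1, at 1.48 to 1.64 (limma adjusted p from 0.0432 to 0.04997).

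SLC6A8, the creatine transporter, read 8.90, 9.44, 8.93 and 9.49 in E2+PROG, against 8.37, 8.70, 8.34 and 8.09 in PROG. The groups did not overlap, as in 13.9% of all genes, and the log2 difference was 0.82 (1.76-fold, limma adjusted p = 0.0350). Here too replicates 2 and 4 of E2+PROG were the high ones, and SLC6A8 averaged 0.50 higher in the run. With the run as a block the difference was 0.57 and no longer called (limma adjusted p = 0.0814), and outside it 0.54 (limma adjusted p = 0.327). Without replicate 2 or 4 of E2+PROG or replicate 1, 3 or 4 of PROG the call was lost too, at 0.72 to 0.82 (limma adjusted p from 0.0808 to 0.155).

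SLC7A4, of the cationic branch, read 6.21, 6.58, 6.24 and 6.43 in E2+PROG, against 5.68, 5.53, 5.48 and 6.04 in PROG. Only 1 of the 4 PROG arrays was above background, so the difference is given as at least 1.30-fold, with a fitted log2 difference of 0.68 (limma adjusted p = 0.0419). Outside the run the fitted value was 0.54 (limma adjusted p = 0.384). Leaving out replicate 2, 3 or 4 of E2+PROG or replicate 1, 2 or 3 of PROG gave 0.61 to 0.72, not called (limma adjusted p from 0.0539 to 0.171). The value itself moved with the processing, to 0.27 without background correction (limma adjusted p = 0.0950) and 1.48 in the processed table (limma adjusted p = 0.211), and the call was lost in both and without a detection filter (limma adjusted p = 0.0527).

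Progesterone alone called 0 members against VC in limma, where 0.0574% of all genes were called. At an unadjusted p under 0.05 there were 8 members, or 22.2%, and 23.6% of all genes. The median member difference was −0.20 (log2), and that of all genes −0.11. Against E2 alone, 0 members were called for E2+DHT (1.08% of all genes), E2+MPA (2.14%), E2+PROG (2.51%) and E2s+PROG (0.0902%). At an unadjusted p under 0.05 these 4 comparisons, which share the E2 arrays, held 2, 3, 5 and 0 members (5.56%, 8.33%, 13.9% and 0%), beside 5.93%, 15.3%, 9.16% and 1.78% of all genes. Comparing the second steroids with each other also called 0 members: MPA with PROG (0.459% of all genes), DHT with MPA (0.312%) and E2+MPA with E2+PROG (2.43%), with 0, 5 and 5 at an unadjusted p under 0.05 (0%, 13.9% and 13.9%, beside 3.33%, 11.1% and 12.4% of all genes). The interactions of E2 with DHT, MPA and PROG called 0 members, beside 0.0082%, 0.0656% and 1.54% of all genes, with 1, 3 and 9 at an unadjusted p under 0.05 (2.78%, 8.33% and 25%, beside 5.47%, 24.1% and 20% of all genes). Averaged over the pairs with and without E2, PROG called 0 (1.77% of all genes), with 5 at an unadjusted p under 0.05 (13.9%, beside 11.1% of all genes).

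SLC38A2, which encodes SNAT2, a glutamine and neutral amino acid carrier induced by amino acid shortage, ranged from 6.65 to 10.995 over the 36 arrays. MPA arrays lay between 10.03 and 10.995 and PROG arrays between 10.33 and 10.59, against 6.65, 10.18, 9.63 and 8.48 in VC. The log2 differences from VC were 1.79 for MPA (limma adjusted p = 0.125) and 1.74 for PROG (limma adjusted p = 0.153), neither called. Without VC replicate 2, the highest VC array, they were 2.27 and 2.23 and were called (limma adjusted p = 0.0317 and 0.0449), in fits that called 13.9% and 7.73% of all genes. Outside the run the MPA difference was 1.70 (limma adjusted p = 0.0472). MPA and PROG are the groups with no array in the run, and in the other 7 groups SLC38A2 averaged 1.59 lower in it. VC replicate 1 was 2.78 below the mean of the other VC arrays.

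Run arrays were also low for 3 further members, picked after their values were seen. SLC38A6, of the sodium-coupled family, averaged 1.69 lower in the run. SLC36A4 and SLC36A1, of the SLC36 family, averaged 1.13 and 0.95 lower. Each of these was lower in 7 of 7 groups. In all, 8 of 36 members were lower in the run, 4 of them by over 0.5, and 3 were higher by over 0.5. These are 22.2%, 11.1% and 8.33% of the members, beside 31.4%, 9.74% and 4.16% of all genes tested. For SLC7A6, also picked after its values were seen, the probe used averaged 0.41 higher in the run and its other probe 0.81 lower, so that probes of the same gene moved in opposite directions. The number of run arrays in a group ranges from 0 in MPA and PROG to 3 in DHT.

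**Figure D4:**
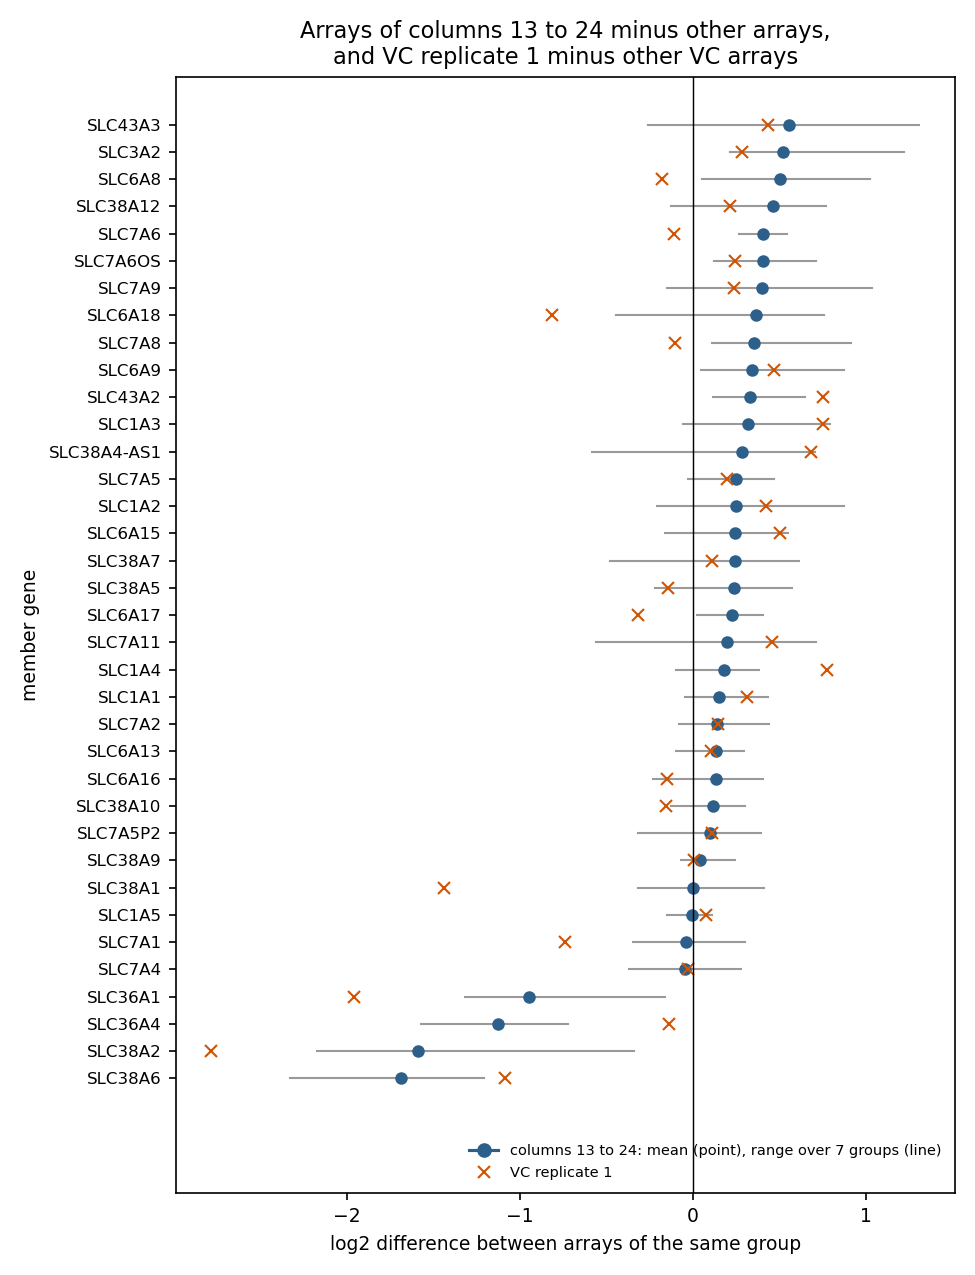
Log2 difference between arrays in columns 13 to 24 and the other arrays of the same group (horizontal axis; point, mean; line, range over 7 groups) for the member genes (down), with VC replicate 1 minus the other VC arrays as crosses. SLC38A6, SLC38A2, SLC36A4 and SLC36A1 lie on the lower side in 7 of 7 groups, and the crosses of SLC38A2, SLC36A1 and SLC38A1 are far to the left.

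Genes around the carriers were read from 5 lists of related pathways. Of 27 tested genes of the amino acid response, 4 rose with E2 over the 4 pairs and 23 did not pass, with a median of 0.03, beside 6.45% of all genes called on that average. Over the alternatives, 1 to 4 were higher and 0 to 3 lower, with 1 higher on the arrays outside the run. They were STC2, a secreted glycoprotein induced by stress, at 1.03, the aminoacyl-tRNA synthetases WARS1 and GARS1, at 0.26 and 0.18, and the transcription factor ATF3, at 0.23 (log2, limma adjusted p between 2.73e-13 and 0.0203). Of 25 genes of amino acid sensing by mTORC1, 1 was called on the same average, DEPTOR, an inhibitor of mTOR, which rose by 1.34 (log2, limma adjusted p = 3.58e-09). DEPTOR and STC2 were lower when MPA or PROG was added to E2, where 2.14% and 2.51% of all genes were called. DEPTOR differed from E2 by −1.06 in E2+MPA and −1.02 in E2+PROG (limma adjusted p = 0.0244 and 0.0288), and STC2 by −0.62 and −0.59 (limma adjusted p = 0.00953 and 0.0123). MTOR, the kinase itself, was 0.60 lower with DHT than with VC on the log2 scale (−0.60, limma adjusted p = 0.0313). There 1 gene of the mTORC1 list was lower, beside 2.4% of all genes called, and 0 to 2 were over the alternatives. The run holds 3 of the 4 DHT arrays and 1 of the 4 VC arrays. With MPA and with PROG added to E2, 0 to 4 and 0 to 1 genes of that list were lower over the alternatives. Of the amino acid response, 0 to 1 were lower in each. Among 13 genes of branched chain and tryptophan breakdown, 2 enzymes of the kynurenine pathway fell with E2 over the 4 pairs. They were KYNU at −0.48 and KMO at −0.37 (limma adjusted p = 0.00134 and 0.0174), with 1 to 2 lower and 0 to 1 higher over the alternatives.

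Among carriers of other families, 2 were higher when DHT or MPA was added to E2. SLC15A2, a proton-coupled peptide transporter, was higher by 1.20 (log2) in E2+DHT than in E2 and by 1.46 in E2+MPA than in E2 (limma adjusted p = 0.000596 and 1.77e-05). SLC25A18, a mitochondrial glutamate carrier, was higher by 0.63, 0.65 and 0.79 in E2+DHT, E2+MPA and E2+PROG than in E2, which share the E2 arrays (limma adjusted p = 0.00286, 0.00149 and 5.58e-05). They were 2 of 14 such carriers tested with DHT and with MPA, beside 1.08% and 2.14% of all genes. That count ran from 0 to 2 over the alternatives in each. In E2s+PROG, SLC25A18 was 0.70 lower than in E2+PROG on the log2 scale (−0.70, limma adjusted p = 0.000538). With DHT averaged over the pairs with and without E2, 3 of 13 genes of glutathione and glutamine metabolism rose: OPLAH at 0.47, GLUD1 at 0.39 and GOT1 at 0.32 (limma adjusted p = 0.0433, 0.0117 and 0.0299), beside 3.26% of all genes. This count ran from 0 to 3 over the alternatives and was 0 on the arrays outside the run, on those inside it and in the fit of only the groups compared.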

How the data were processed

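Biotinylated cRNA was made from total RNA for Illumina arrays, per the labels' protocols. Per the file headers, the authors deposited unnormalized probe intensity with a detection p-value per probe and array. A processed intensity table that the authors also deposited was, on each array, a straight line of the unnormalized one (slopes 0.324 to 1.57), and served as an alternative.

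The unnormalized intensity was background-corrected from the detection p-values (neqc, offset 16), quantile normalized and put on the log2 scale with limma 3.58.1 under R 4.3.3 (tables read by data.table version 1.17.8). The lowest normalized log2 signal above background was 5.86 to 6.21 per array. Probes with a detection p under 0.05 on at least 4 arrays were kept (21116 of 48803), named by the platform annotation (27578 with 1 symbol, 13 with several, 21212 with none), and the brightest probe per gene was tested. All 62 member genes matched the gene table of GRCh38.p14. A single limma fit with 1 mean per group over 36 arrays gave every contrast, with Benjamini-Hochberg adjustment over 12195 genes, a threshold of 0.05 and 95% intervals. Log2 differences are the first-named group minus the second. The number of arrays limits the precision. The steps were tested on simulated data.

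Members and lists were chosen with earlier results of these data known. Named members are those called in a pairwise comparison or an interaction, plus SLC7A5, SLC3A2, SLC7A8, SLC7A11, SLC1A5, SLC43A1, SLC38A1, SLC38A2, SLC6A14 and SLC7A2 whatever their result, and members named beyond these were picked after their values were seen. From the lists of related pathways, at most 4 called genes per list and comparison were named, and not every called gene is. Alternatives were background correction, detection filters, probe averaging, the groups compared alone, the run, a replicate block, the processed table and each array left out. The averaged contrasts and the run block without VC replicate 1 were added after the data were seen. No pair of the 36 arrays was identical, and 0 columns belonged to other samples.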

Additional observations from a re-analysis of the deposited data

Results flagged for a closer look

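In a group of 4 arrays, a member was picked out where its highest or lowest array lay far from the other 3. This was the case in 10 of 126 checks, 7.94%, on 14 genes, and chance gives about 5%. In VC, replicate 1 was low for SLC7A1, at 10.75 (next 11.42), replicate 2 low for SLC3A2, at 10.67 (next 11.36), and replicate 4 high for SLC6A8, at 9.42 (next 8.64). VC replicate 4 is in the run. SLC7A5 was low on replicate 1 of MPA, at 13.35 (next 13.89), and of PROG, at 13.62 (next 14.01). SLC38A2 was low on E2+DHT replicate 1, at 9.10 (next 10.69), and on E2s+PROG replicate 4, at 8.51 (next 10.10), both in the run. On that E2s+PROG array SLC6A9 was high, at 8.51 (next 8.16). SLC38A1 was high on E2+MPA replicate 4, at 13.93 (next 13.33), also in the run. SLC7A11 was high on E2 replicate 1, at 6.24 (next 5.53), in the run.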

How the results depend on the processing

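Of the single-gene results, 356 alternatives kept the call, 93 lost it and 0 turned the direction. SLC7A2 kept its call in 42 of 42 alternatives for the E2 average and in 18 of 18 for E2+PROG against PROG, and SLC7A5 in 41 of 42 for the E2 average. The least stable calls were SLC6A9 with MPA (8 of 18) and for the DHT average (12 of 27), SLC7A4 (7 of 17), SLC38A1 with DHT (8 of 19) and SLC7A8 (8 of 19). Where a call was lost, the cause was not tested, except that fits on fewer arrays have less power by construction.

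Counts of members called moved as follows, against 1 for E2 and for DHT with VC, 2 for MPA with VC, 1 each for E2+DHT with DHT, E2+MPA with MPA and E2s+PROG with E2+PROG, 4 for E2+PROG with PROG, 4, 2 and 1 for the E2, DHT and MPA averages, and 0 elsewhere. Where given below, the share of all genes called moved too. A count listed without that share is a description only and no result about the members. Without background correction, E2 with VC gave 2 and E2s+PROG with E2+PROG 0. A detection p under 0.01 gave 2 for E2 with VC. No detection filter gave 1 for MPA with VC, 1 for E2+MPA with E2+PROG and 1 for the DHT average. The mean of kept probes gave 2 for E2 with VC, 0 for DHT with VC, 1 for MPA with VC, 1 for E2+MPA with E2 and 0 for the MPA average. The authors' processed table gave 0 for DHT with VC, 1 for MPA with VC and 1 for E2+MPA with E2+PROG. Fits of only the groups compared gave 0 for E2, DHT and MPA with VC, for E2+DHT with DHT, E2+MPA with MPA, E2s+PROG with E2+PROG and the DHT and MPA averages.

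With the run as a block, the counts were 5 for E2 with VC (12.4% of all genes called), 4 for DHT with VC (8.28%), 1 for E2+PROG with E2, 2 for E2+DHT with DHT, 1 for E2+MPA with E2+PROG and 1 for the interaction of E2 and PROG. That block without VC replicate 1 gave 2 for E2 with VC, 0 for DHT and for MPA with VC, 1 for E2+DHT with E2, 1 for E2+MPA with E2, 2 for E2+PROG with E2, 2 for E2+DHT with DHT, 4 for E2+MPA with E2+PROG, 2 for E2s+PROG with E2+PROG and 2 for the MPA average. Outside the run there were 2 for E2, DHT and PROG with VC, 0 for E2+MPA with MPA, 2 for E2+PROG with PROG, 0 for E2s+PROG with E2+PROG, 1 for the interaction of E2 and PROG, 2 for the E2 average, 1 for the DHT average and 0 for the MPA average. Inside it there were 0 for E2 and DHT with VC, 1 for E2+MPA with E2, and 0 for E2+DHT with DHT, E2s+PROG with E2+PROG and the DHT average. Comparisons with MPA or PROG alone could not be run inside it.

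Leaving out 1 array at a time gave 1 to 2 for E2 with VC, 0 to 2 for DHT with VC, 0 to 5 for MPA with VC, 0 to 4 for PROG with VC, 1 to 2 for E2+DHT with DHT, 1 to 3 for E2+MPA with MPA, 1 to 4 for E2+PROG with PROG, 0 to 1 for DHT with MPA and for E2s+PROG with E2+PROG, 0 to 1 and 0 to 3 for the interactions of E2 with MPA and PROG, 4 to 5 for the E2 average, 1 to 2 for the DHT and MPA averages, 0 to 1 for the PROG average and 0 for the others. VC replicate 2 decided the highest counts for MPA and PROG with VC, since leaving it out gave 5 and 4, where 13.9% and 7.73% of all genes were then called. Without VC replicate 1 the counts for DHT and MPA with VC were 0 and 0, without E2 replicate 1 the interaction of E2 and PROG gave 3, without E2+MPA replicate 1 or 2 E2+MPA with MPA gave 3, and without E2+PROG replicate 2 or 4 E2+PROG with PROG gave 1.

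In 0 of 15 comparisons were all same-numbered pairs of arrays correlated over 0.1 (range −0.70 to 0.70). This cannot decide whether replicate numbers pair the arrays. The first component of the same residuals holds 49.4% of their variance and largely sets the run apart. Between MPA and PROG, which have no array in the run, the pairs ran from 0.07 to 0.27. There 3 of 4 arrays correlated best with the array of their own number. The replicate block gave 2 for E2 with VC and moved no other count by over 1.5 times, and SLC7A2 had 0.60 with it in that comparison (limma adjusted p = 0.00511, with 0.000668 to 0.839 over all alternatives). Over its alternatives the limma adjusted p of SLC7A2 ran from 1.26e-05 to 0.727 for E2+DHT with DHT, 8.34e-05 to 0.133 for E2+MPA with MPA, 2.82e-08 to 0.000289 for E2+PROG with PROG and 5.34e-12 to 9.42e-07 for the E2 average. For SLC7A5 and SLC7A1 on that average it ran from 0.000169 to 0.0698 and from 0.000624 to 0.135. It ran from 0.00803 to 0.999 and from 0.00419 to 0.691 for SLC38A1 with DHT and MPA, from 0.0103 to 0.259 for SLC6A9 with MPA, from 0.00696 to 0.0935 for SLC43A3, from 0.0262 to 0.327 for SLC6A8, from 0.0248 to 0.384 for SLC7A4 and from 0.0215 to 0.942 for SLC7A8.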
